A study of Drosophila melanogaster with 2 samples.

Results

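Divergent promoters, where a gene on the plus strand and a gene on the minus strand start close together and are transcribed away from each other, held 613 of the 5707 binding summits mapped for the Drosophila transcription factor Gcm, or 10.7% (exact 95% interval 9.95 to 11.6). A summit is the base of highest signal within a peak, and the list is the one the authors thresholded by the irreproducible discovery rate (IDR), which keeps peaks ranked alike in replicates. Members were chosen by position alone. A summit entered when it lay within 500 bp of a protein-coding transcription start site (TSS) on the plus strand and within 500 bp of a TSS of a different protein-coding gene on the minus strand. They made up 27.2% of the 2253 summits within 500 bp of any protein-coding TSS. A further 1590 lay near the TSS of 1 gene and 50 near several genes of 1 strand, and 3454 lay farther from any such TSS. The data are chromatin immunoprecipitation sequencing (ChIP-seq) peaks from whole Drosophila melanogaster embryos aged 0 to 16 hours, sexes pooled, of a transgenic line stably expressing Gcm with GFP at its C-terminus, precipitated with an antibody to GFP. The group held 2 biological replicates, numbered 1 and 3, which share 1 donor label, so no comparison between conditions exists. Whole embryos mix many cell types, and a peak does not show which of them was bound. Peak height is the signal value that the authors' peak caller gave, on a scale of its own in each list, with no unit beyond that.

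Gcm, for glial cells missing, is a transcription factor with a zinc-binding domain that switches neural precursors to glial fate and acts in embryonic blood cells. In the fly, compact divergent promoters are common and often serve broadly expressed genes. Many such promoters carry short words bound by general factors, among them the DNA replication-related element (DRE) bound by DREF, the word bound by the zinc finger protein M1BP, and core elements known by the numbers 6 and 7 in the Ohler series. GAGA words, bound by Trl, are better known from developmental promoters.

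The DNA of 5 of the 12 highest members is shown from the minus-strand TSS to the plus-strand TSS, because these stretches show what lies between the TSSs there. Each is read 5′ to 3′ on the plus strand of the Release 6 assembly (dm6 coordinates), and capitals would mark the Gcm, DRE, M1BP, Ohler 6 and Ohler 7 words.
mRpS10/Art3, chr3R:15229408-15229665: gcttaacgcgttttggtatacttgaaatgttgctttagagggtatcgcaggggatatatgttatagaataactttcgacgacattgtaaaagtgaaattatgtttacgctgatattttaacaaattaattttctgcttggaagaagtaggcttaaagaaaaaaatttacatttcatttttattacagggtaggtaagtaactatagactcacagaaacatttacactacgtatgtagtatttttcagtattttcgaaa
CHMP2B/Tcs5, chr3L:5139395-5139619: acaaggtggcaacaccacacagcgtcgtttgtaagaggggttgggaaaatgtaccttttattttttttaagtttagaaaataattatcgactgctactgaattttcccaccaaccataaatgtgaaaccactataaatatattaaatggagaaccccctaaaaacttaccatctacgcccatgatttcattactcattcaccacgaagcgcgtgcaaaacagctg
Ssl1/Chro, chr3L:22878984-22879089: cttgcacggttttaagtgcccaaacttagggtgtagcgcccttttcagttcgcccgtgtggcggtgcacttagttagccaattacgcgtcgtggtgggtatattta
CG7632/CG11309, chr3L:21304658-21304697: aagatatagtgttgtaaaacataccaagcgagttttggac
CG9147/Fbw5, chr2L:6065953-6066087: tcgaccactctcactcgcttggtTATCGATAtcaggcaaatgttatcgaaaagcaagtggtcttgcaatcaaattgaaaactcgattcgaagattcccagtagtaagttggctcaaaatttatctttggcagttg
The DRE word between CG9147 and Fbw5 is the single word in capitals, and none of the 5 stretches holds the Gcm consensus. That word lies over 100 bp from the summit of its peak. The stretches of Ssl1/Chro, CG7632/CG11309 and CG9147/Fbw5 do not contain the summit, which fell outside the 2 TSSs.

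The highest member lay between mRpS10, which encodes a protein of the small mitochondrial ribosomal subunit, and Art3, an arginine methyltransferase gene. Its summit (3R, 15229535) fell 127 bp from the TSS of Art3 and 130 bp from that of mRpS10, with signal 2838, rank 8 of 5707. It stood at 1654 in replicate 1 and 1190.3 in replicate 3, rank 9 in both lists. The peak of CG7632 and CG11309 (3L, summit 21304572) had signal 2825, with 1717 in replicate 1 and 1126 in replicate 3. Between CenG1A, an Arf GTPase-activating protein gene, and mRpS23, another mitochondrial ribosomal protein gene (2L, summit 13835460), the signal was 2627, with 1500.1 and 1132 in the replicates. These 3 members ranked between 7 and 13 in each replicate.

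The next members paired genes of unlike roles. Ssl1, a subunit gene of the general transcription factor TFIIH, and Chro, which encodes a chromodomain protein of interbands and the spindle, shared a peak of 2423 (1323 in replicate 1, 1081 in replicate 3). CG9147 and the F-box gene Fbw5 had 2112 (1191 and 909). The peak of Pal1, a peptide-amidating enzyme gene, and Pdrg1 on arm 2R reached 2099 (1239.8 and 851). All 3 lay at 7 to 8.1 times the median signal of the whole list, 299.

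Signals of 2063 and 2051 belonged to CG18428 with eIF4EHP, a cap-binding translational repressor gene (1144 in replicate 1, 924 in replicate 3), and to Mtl, a Rac-family GTPase gene, with CG5611 (1157 and 887). Piezo, the mechanically gated channel gene, and Acbp1, an acyl-CoA binding protein gene, shared 2033 (1202 and 795). CHMP2B, of the ESCRT-III complex, and the tRNA modification gene Tcs5 shared 1968 (1057 and 905). The last of the 12 were bves with Stt3A, a catalytic subunit gene of the oligosaccharyltransferase, at 1867 (1079.5 and 786), and CG17294 with CG13390 at 1796 (998 and 798). Each of the 12 was higher in replicate 1 on the scales of the lists, which differ, so the ranks rather than the heights compare them. None of the 12 had the Gcm consensus or the DRE word within 100 bp of its summit, where 9.76% and 2.21% of all 5707 summits had them.

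**Figure D1:**
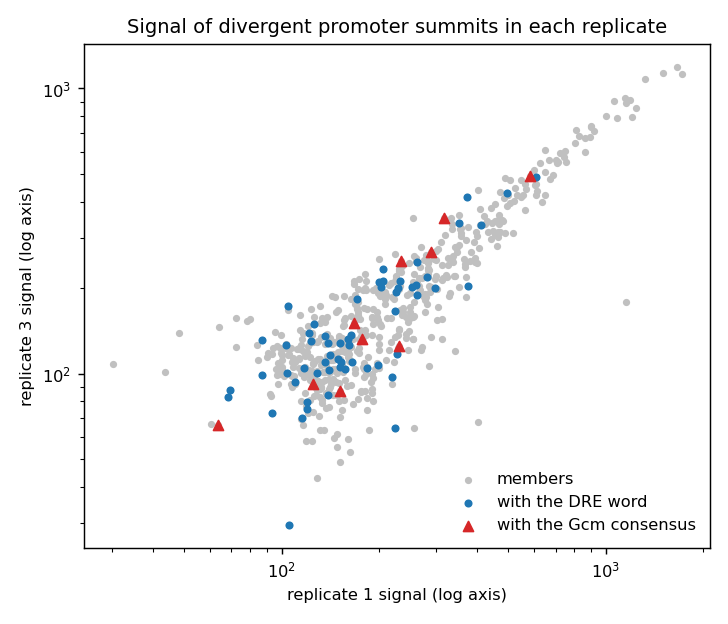
Signal of each divergent promoter summit in the list of replicate 1 (x axis) and of replicate 3 (y axis), both on log axes in the units of the authors' caller. Each of the 590 points is a summit matched in both lists, those with the DRE word within 100 bp are blue, those with the Gcm consensus are red triangles. Points lie along a diagonal, and the coloured points are spread below the highest summits.

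Members were chosen from a list that keeps peaks ranked alike in these same replicates, so their recovery there is a description and no independent check. Of the 613 members, 606 overlapped a peak of replicate 1's list of 30000 and 597 one of replicate 3's, and 590 had a match in both. Among the 5707 strongest peaks of each replicate, 555 members (90.5%, interval 87.9 to 92.7) were overlapped in replicate 1 and 534 (87.1%, 84.2 to 89.7) in replicate 3, a mean of 88.8% ± 2.42 (SD, n = 2). Single-gene promoter summits stood at 91.3% and 87.7%. Across the 590 members matched in both, heights had a Spearman's rho of 0.798, a description over summits that were themselves selected by height in the pooled libraries. The ratio of replicate 1 to replicate 3 had a median of 1.26 over members and 1.27 over single-gene promoter summits.

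Most members matched the label by geometry. In 598 of 613 (97.6%, interval 96.0 to 98.6) the minus-strand TSS nearest the summit lay to the left of the plus-strand TSS, so the genes point away from each other. In the other 15 the 5′ ends overlapped. The highest of these were Cyt-c-d, a cytochrome c gene, with CG31808 (signal 1464, 861 in replicate 1 and 596 in replicate 3), CG4658 with CG5846 (1066, 650.3 and 422) and Adck1 with CG4741 (969.6, 548 and 417). The members fell on 588 gene pairs. Of these, 25 held 2 summits, which share their promoter, and 30 members also lay within 500 bp of a TSS of a further gene.

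The TSSs of head-to-head members lay a median of 284 bp apart, with an upper quartile of 375 bp and extremes of 6 and 897 bp. The summit fell between the 2 TSSs in 459 of 598 (76.8%, interval 73.2 to 80.1). There it lay a median of 49.5% of the way from the minus-strand to the plus-strand TSS, and 355 of the 459 (77.3%) were in the central part, from 25% to 75% of the way. The plus-strand TSS was the nearer in 221 of 459 (48.1%, interval 43.5 to 52.8), so neither strand was favoured beyond counting error. By annotation 386 members (63.0%) were intergenic, 151 (24.6%) in a 5′ UTR, 72 (11.7%) in an intron, and 2 each in a coding exon and a 3′ UTR. Single-gene promoter summits were intergenic in 40.0% and intronic in 34.0%.

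Where the TSSs lay closer together the summit was less often between them. With TSSs 201 to 300 bp apart, 170 of 195 summits (87.2%) lay between, a median of 30 bp from the midpoint. With 1 to 100 bp it was 13 of 68 (19.1%), a median of 76.3 bp from the midpoint, and with 101 to 200 bp 41 of 75 (54.7%) and 68.0 bp. At wider pairs the median distance from the midpoint was 51.5 bp (301 to 400 bp apart), 82 bp (401 to 500 bp) and 99.3 bp (501 to 1000 bp), so it was smallest at 201 to 300 bp. The room between the TSSs differs between these steps, and its part in the shares and distances was not tested. Tight pairs of high signal were CG7632 with CG11309 (39 bp apart), CG8320 with the peroxisomal gene Pex11ab (33 bp, signal 1523, 807 in replicate 1 and 716 in replicate 3) and CG9004 with the mitochondrial ribosomal protein gene mRpL23 (50 bp, 1350.4, 745 and 602). In all 3 the summit fell outside the pair of TSSs, 86, 87 and 56 bp from the nearer TSS.

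**Figure D2:**
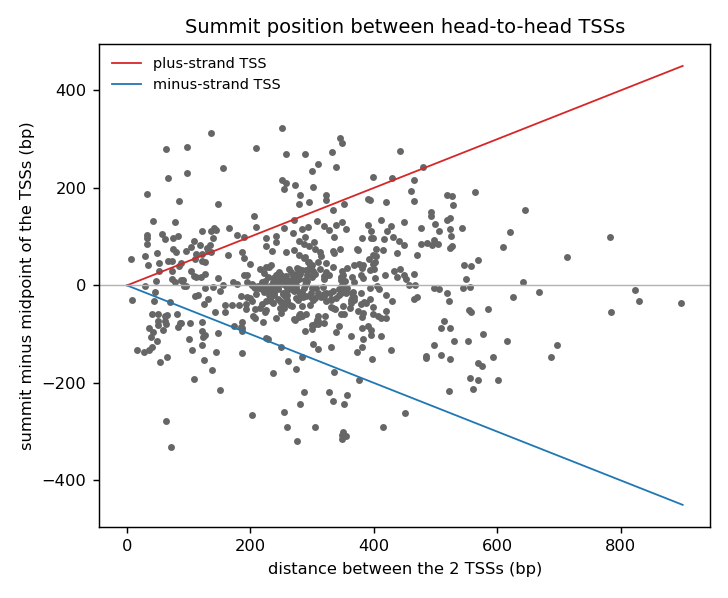
Position of the summit in the 598 head-to-head members. The x axis is the distance between the 2 TSSs in bp and the y axis the summit minus their midpoint in bp, with the plus-strand TSS on the red line and the minus-strand TSS on the blue line. Summits cluster near the midpoint where the TSSs lie 201 to 300 bp apart and fall outside the lines in most pairs up to 100 bp apart.

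The annotation holds 1995 gene pairs whose TSSs lie head to head at most 500 bp apart, and 578 of them (29.0%, interval 26.99 to 31.0) had a summit within 500 bp of both TSSs. The share was 36.5% (198 of 542) at 201 to 300 bp and 37.3% (149 of 400, interval 32.5 to 42.2) at 301 to 400 bp. It was 23.3% (100 of 429, interval 19.4 to 27.6) at 1 to 100 bp, 22.7% (81 of 357) at 101 to 200 bp and 18.7% (50 of 267, interval 14.2 to 23.9) at 401 to 500 bp. The intervals of the 2 middle distances do not overlap those of the other 3. The room in which a summit can count as near both TSSs shrinks as the distance grows, so the last step is not on an equal footing. With any of the 30000 pooled peaks counted, 1101 pairs (55.2%) had a summit.

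**Figure D3:**
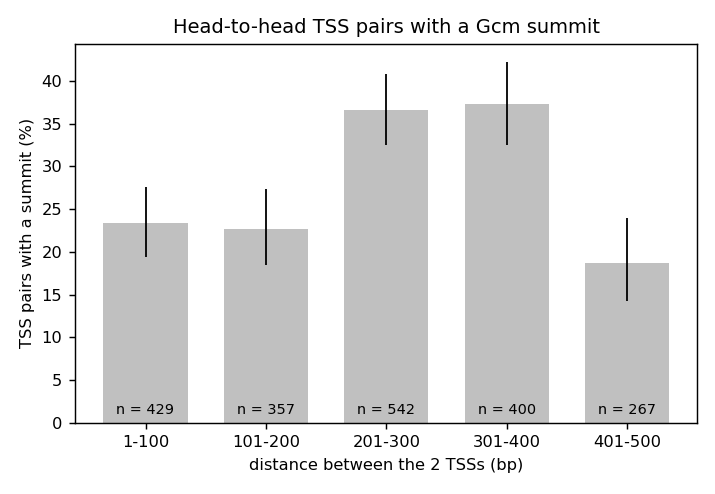
Share of head-to-head TSS pairs with a Gcm summit within 500 bp of both TSSs (y axis, percent), by distance between the TSSs in bp (x axis). Bars start at 0, error bars are exact 95% intervals and n is the number of pairs. The steps of 201 to 300 and 301 to 400 bp stand at 36.5% and 37.3%, the others between 18.7% and 23.3%.

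Genes with a divergent partner had a promoter summit more often than genes without. A summit lay within 500 bp of a gene's own TSS in 1248 of 3878 genes (32.2%) with an opposite-strand TSS of another gene within 500 bp, and in 1385 of 10067 (13.8%) without, a difference of 18.4 points (95% interval 16.8 to 20.1). The window was the same for both kinds. Genes with 1 annotated TSS position gave 19.1 points (17.3 to 21.0). A summit between 2 genes counts for both, so genes are not independent and the interval may be too narrow. The window of a gene with a partner also takes in the partner's TSS, so a summit at either promoter can count for the gene. The part of this layout in the difference was not tested. Expression of the genes was not measured, and its part in the difference was not tested.

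The Gcm consensus was rare at these summits. It is the word ATGCGGGT with A allowed as the third base and C as the last, counted on either strand up to 100 bp from a summit. It stood at 10 of 613 members (1.63%, interval 0.785 to 2.98), at 88 of 1590 single-gene promoter summits (5.53%) and at 13.2% of the 3454 summits over 500 bp from a TSS. Members lay 3.90 points below single-gene promoters (95% interval -5.34 to -2.21). Their share was not resolved from that of their own flanks, where equal windows 1000 bp to the left and to the right of the summit held the word in 1.96% and 2.45% (difference from the left -0.326 points, interval -1.95 to 1.27). With members taken up to 1000 bp from the TSSs the difference turned to 1.79 points, with an interval that left out 0 (0.108 to 3.54). The flanks are not matched for distance to a TSS or for base composition, so the contrast is no measure of binding. In the 5707 strongest peaks of each replicate's own list the share was 1.34% ± 0.103 at divergent and 5.40% ± 0.249 at single-gene promoters (SD, n = 2).

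For 7 of these 10 members the word is shown with 16 bases before the word and 16 after, because they show the factor's own word at divergent sites. Sequences are the plus strand of the Release 6 assembly, and capitals mark the consensus or its reverse complement.
Icmt/mRpL20, chr3L:13018063-13018102: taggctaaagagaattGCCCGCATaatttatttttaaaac
SMC5/CRIF, chr3L:21569187-21569226: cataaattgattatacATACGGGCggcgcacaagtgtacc
EMC5/Swip-1, chr2L:18987691-18987730: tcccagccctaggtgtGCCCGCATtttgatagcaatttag
CG3792/Gmd, chr2L:4977419-4977458: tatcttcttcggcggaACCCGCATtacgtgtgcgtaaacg
Tom20/Gabat, chr3L:20000277-20000316: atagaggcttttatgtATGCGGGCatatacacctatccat
CG44040/CG6276, chr3R:15320085-15320124: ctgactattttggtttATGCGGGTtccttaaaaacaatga
ICA69/ko, chr3L:21131246-21131285: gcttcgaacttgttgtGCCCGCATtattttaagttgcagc
Among those shown, the centre of the word lay from 1.5 bp (CG3792/Gmd) to 94.5 bp (EMC5/Swip-1) from the summit.

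The members with the consensus were spread over the heights of members, with 3 among the 153 strongest and 3, 2 and 2 in the next 153, 153 and 154. The highest, between Icmt, an isoprenylcysteine methyltransferase gene, and mRpL20, reached 1079 (584 in replicate 1, 492 in replicate 3), rank 197. Among the others, SMC5, of the SMC5/6 complex, and CRIF shared 559 (288 and 267), and Ggamma1, a G protein gamma subunit gene, with MrgBP 492 (234 and 248). Lower members were EMC5 with Swip-1 at 360.1 (229.7 and 125), CG3792 with Gmd, a GDP-mannose dehydratase gene, at 339 (151 and 86.6), Tom20, a mitochondrial import receptor gene, with Gabat, the GABA transaminase gene, at 306 (168 and 151), and CG44040 with CG6276 at 270.4 (176 and 133). Ggamma1/MrgBP was higher in replicate 3 than in replicate 1. None of gcm, gcm2, repo, pnt, loco and ttk, genes known in connection with gcm, had a member at its TSS. Promoter summits of another class lay at gcm, gcm2, repo, pnt and ttk, which have no divergent partner within 500 bp. The gene loco has such a partner, and it had no summit within 500 bp of its TSS.

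**Figure D4:**
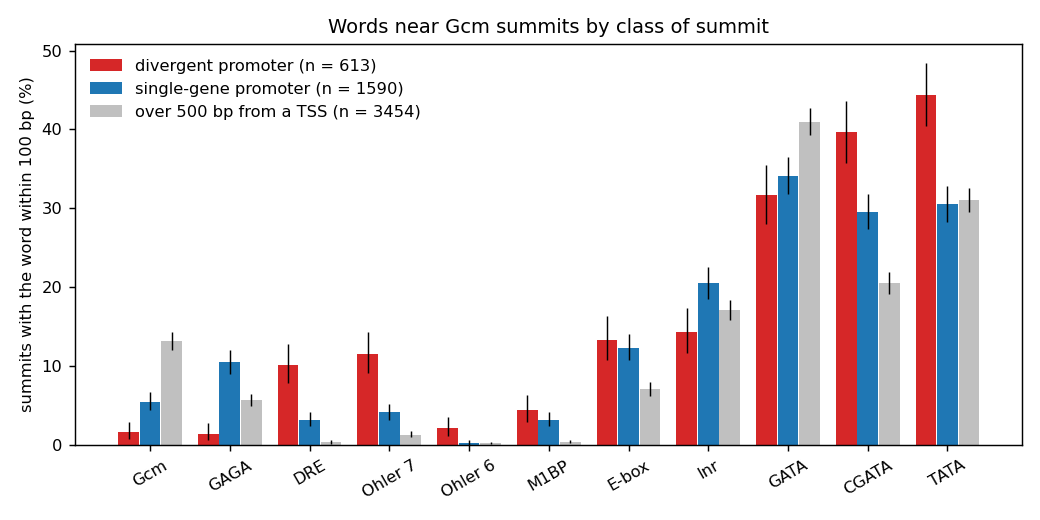
Share of summits with each word within 100 bp (y axis, percent) at the 613 divergent promoter summits (red), the 1590 single-gene promoter summits (blue) and the 3454 summits over 500 bp from a protein-coding TSS (grey). Bars start at 0 and error bars are exact 95% intervals. Divergent promoters are lowest for Gcm (1.63%) and GAGA (1.47%) and highest for DRE (10.1%), Ohler 7 (11.6%) and TATAAA (44.4%, labelled TATA).

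Words of broadly expressed promoters showed the opposite order. DRE, spelled TATCGATA, lay within 100 bp of 62 members (10.1%, interval 7.84 to 12.8) and of 3.21% of single-gene promoter summits, a difference of 6.91 points (4.55 to 9.65). In the 5707 strongest peaks of each replicate's own list it stood at 10.3% ± 0.404 and 3.16% ± 0.923 (SD, n = 2). Ohler 7 stood at 11.6% against 4.15% (7.43 points, 4.89 to 10.3) and Ohler 6 at 2.12% against 0.252% (1.87 points, 0.908 to 3.35), while 3.28% and 0.456% of all summits had them. M1BP, spelled GGTCACAC, stood at 4.40% against 3.21%, and the interval of the difference took in 0 (1.20 points, -0.482 to 3.27, all summits 1.63%). At least 1 of these 4 words lay at 154 members (25.1%), at 9.94% of single-gene promoter summits and at 6.96% of all summits. Member summits lay a median of 102 bp from the nearest TSS and single-gene promoter summits 159 bp, and members have a TSS on each strand nearby. The part of these features in the differences was not tested.

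For 4 high members with DRE the word is shown with 16 bases on each side, because DRE is the best known of these words. They are plus-strand sequence of the same assembly, with the word in capitals.
Lamtor3/fws, chr2L:17481202-17481241: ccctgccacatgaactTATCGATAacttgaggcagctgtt
Trmt61/RpL34a, chr3R:26059287-26059326: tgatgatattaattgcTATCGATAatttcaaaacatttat
Shc/Atat, chr3L:9426944-9426983: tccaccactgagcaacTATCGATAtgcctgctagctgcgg
CG4820/RpS25, chr3R:11216323-11216362: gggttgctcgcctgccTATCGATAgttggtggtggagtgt
Lamtor3, of the lysosomal Ragulator complex, and fws, of the Golgi COG complex, had signal 1099.4 (608 in replicate 1, 491 in replicate 3). The tRNA methyltransferase gene Trmt61 and RpL34a had 798 (374 and 415), and the adaptor gene Shc with Atat, a tubulin acetyltransferase gene, 753 (412 and 333). CG4820 and the ribosomal protein gene RpS25 had 679 (351 and 336).

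The share with DRE varied with height and with the distance between the TSSs. Of the 153 strongest members, with signal from 524 up, 6 had it (3.92%, interval 1.45 to 8.34), against 17, 21 and 18 in the next 153, 153 and 154. The first interval lay below that of the group with 21 (8.70 to 20.2) and overlapped the other intervals. With TSSs 1 to 100 bp apart 15 of 68 members had DRE (22.1%, interval 12.9 to 33.8), and with 401 to 500 bp 1 of 57 (1.75%, 0.0444 to 9.39). The steps between stood at 16.0% (101 to 200 bp), 8.72% (201 to 300 bp) and 10.9% (301 to 400 bp), and pairs 501 to 1000 bp apart at 1.79%. Words were sought within 100 bp of the summit, a window that can leave out the TSSs of wide pairs. Its part in these shares was not tested. The Gcm consensus by height stood at 3, 3, 2 and 2. CGATA, a word bound by the insulator protein BEAF-32 and contained in DRE, lay at 39.6% of members and 29.6% of single-gene promoter summits (10.1 points, 5.65 to 14.6, all summits 25.2%). Among summits without DRE it was 32.8% against 27.2%. The core promoter E-box CAGCTG, at 13.4% against 12.3% (all 9.25%), and the GATA word, AGATAA with T as the first or G as the last base also allowed, at 31.6% against 34.2% (all 38.1%), had differences whose intervals took in 0 (1.05 points, -1.95 to 4.35, and -2.50 points, -6.78 to 1.92).

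GAGA and initiator words were scarcer than at single-gene promoters. GAGAGAG lay at 9 members (1.47%) and at 10.5% of single-gene promoter summits (-9.03 points, -10.8 to -7.12, all summits 6.61%). The initiator word TCAGTT, or TCAGTC, stood at 14.4% against 20.5% (-6.15 points, -9.43 to -2.59, all 17.8%). TATAAA lay at 44.4% of members against 30.5% (13.9 points, 9.35 to 18.4, all 32.4%). It was rarely in the place of a TATA box. From 16 to 45 bp upstream of the TSS and in the matching orientation it stood at 22 of 1226 member TSSs (1.79%, interval 1.13 to 2.70), and at 65 of 1590 nearest TSSs of single-gene promoter summits (4.09%). Members were richer in A and T, with a median GC content of 32.3% within 100 bp of the summit against 39.3% at single-gene promoter summits, and the part of base composition in the shares of these words was not tested.

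DRE words lay mostly between the TSSs. From 250 bp outside either TSS, head-to-head members held 192 DRE words, and 145 of them (75.5%, interval 68.8 to 81.4) lay between the 2 TSSs, which make up 36.9% of the length. Those between lay a median of 29.5 bp from the nearer TSS. Ohler 7 had 54.5% of 266 words between the TSSs, a median of 30 bp from the nearer TSS, and M1BP 45.3% of 148, a median of 27.5 bp. TATAAA had 583 of 930 words there (62.7%, interval 59.5 to 65.8), a median of 116.5 bp from the nearer TSS. The part of base composition in these shares was not tested. Words were counted per member, so those at a pair with 2 summits can enter 2 times. The intervals may therefore be too narrow. Set against the summit, 28 of 166 DRE words within 250 bp (16.9%, interval 11.5 to 23.4) lay within 50 bp, where an even spread gives 20.2%. Ohler 7 (10.7%) and M1BP (10%) had fewer there, TATAAA (32.8%) more, and the consensus had 8 of 25 words there (32.0%, interval 14.9 to 53.5).

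Divergent promoters with and without a summit were compared for the 11 words and for the 4 promoter words together, with intervals not adjusted for their number. The comparison was chosen after seeing the data. Pairs without a summit lack one of the IDR-thresholded list. With any pooled peak counted, 1101 of the 1995 pairs had a summit, so some pairs without one here had a weaker peak. Within 100 bp of the midpoint, DRE stood at 67 of the 578 head-to-head pairs with a summit (11.6%) and at 152 of the 1417 without (10.7%), a difference of 0.865 points (95% interval -2.05 to 4.10). At least 1 of the 4 promoter words stood at 27.2% and 25.7% (1.47 points, -2.71 to 5.84), and TATAAA at 40.7% and 39.0% (1.63 points, -3.06 to 6.40). The Gcm consensus was at 4 pairs of each kind, 0.692% and 0.282% (0.410 points, -0.201 to 1.50). Words lower at pairs with a summit were CGATA (42.7% against 48.4%), the initiator (14.01% against 20.0%) and GAGA (1.21% against 2.82%), each with an interval that left out 0. Median GC content was 31.3% with and 34.3% without a summit.

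**Figure D5:**
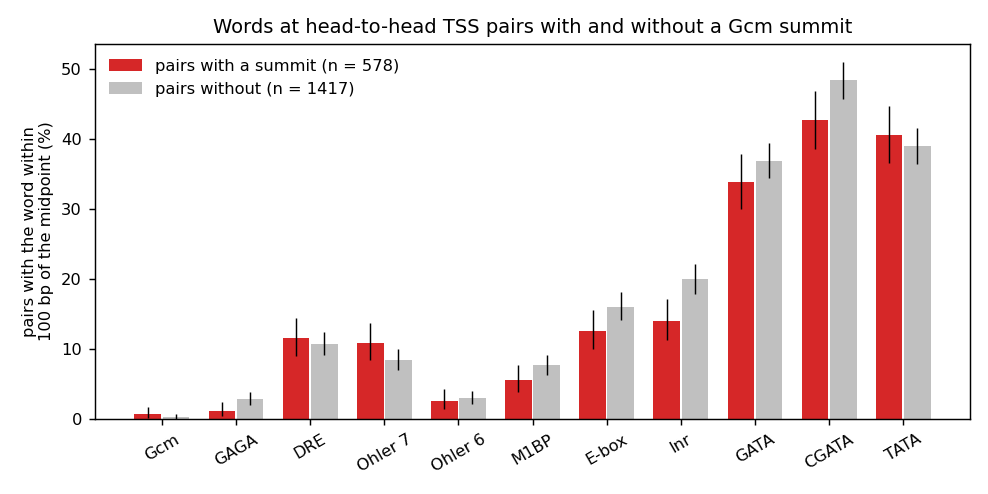
Share of head-to-head TSS pairs, at most 500 bp apart, with each word within 100 bp of their midpoint (y axis, percent). Red bars are the 578 pairs with a Gcm summit of the IDR-thresholded list. Grey bars are the 1417 without one, some of which have a weaker pooled peak. Bars start at 0 and error bars are exact 95% intervals. DRE stands at 11.6% and 10.7%, and TATAAA (labelled TATA) at 40.7% and 39.0%.

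Gene groups are read against all genes with a divergent partner, of which 29.0% (1126 of 3878) had a member within 500 bp of a TSS, and against all genes, of which 8.71% did. Cytoplasmic ribosomal protein genes stood highest, with a member at 29 of the 34 that have a partner (85.3%). Their 52 genes without a partner had a promoter summit of another kind in 35 cases (67.3%), where 13.8% of all genes without a partner had one. High members of the group were RpL34b with CG8132 (signal 1069, 607 in replicate 1 and 464 in replicate 3) and RpS27 with the nuclear pore gene Nup37 (929, 472 and 434). Binding at this group was known from the same data, so its count is no independent evidence.

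The other groups of broadly expressed genes lay near the 29.0%. Mitochondrial ribosomal proteins had 18 of 54 (33.3%), led by mRpS10, mRpS23 and mRpL23, and respiratory chain subunits 12 of 40 (30%). With or without a partner, 13 respiratory chain genes had a member. The highest were the complex I genes ND-ASHI (568, 303 and 274) and ND-MWFE (547, 281 and 249.96), and COX5A (462, 301 and 154). At the member of ND-ASHI the other TSS, that of Fum1, lay 522 bp away, beyond the limit for a partner. Aminoacyl-tRNA synthetases had 7 of 21, with IleRS (726, 421 in replicate 1 and no match in replicate 3), SerRS (580.4, 326 and 255) and GluProRS (518, 328 and 188). Proteasome subunits had 8 of 24, led by Rpn3 (397, 202 and 201, with DRE), Prosalpha7 (367, 167 and 206) and Rpn6 (312, 162 and 53.3). Translation initiation factors had 5 of 18, with eIF4EHP, eIF1 (446, 231 and 211, with DRE) and eIF3a (289, 151 and 128, with DRE). None of these 5 shares stood apart from 29.0% by its exact interval.

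Nuclear genes gave like shares. The transcription machinery had 12 of 42 (28.6%), led by the TFIID gene Taf5 (817, 442 and 379.9), the Mediator gene MED30 (744, 443 and 296) and the RNA polymerase II gene Polr2B (663, 358 in replicate 1 and no match in replicate 3). Splicing factors had 8 of 23, with U2af50 (761, 423 and 334), snRNP-U1-C (401, 210.2 and 188) and SC35 (318, 164 and 159). Chromatin regulators had 7 of 19, with the insulator gene Cp190 (1635, 899 and 732), the Polycomb group gene E(z) (1122, 601 and 519.8) and M1BP itself (857, 403 and 440.03). Nuclear pore genes had 4 of 16, led by Nup37, Nup93-2 (258, 176 and 86.1) and Nup98-96 (254, 144 and 112).

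Cell cycle genes had 5 of 13, with the kinase genes Cdk1 (382, 208 and 175), aurB (330.2, 199.8 and 135) and aurA (295, 159 and 126). DNA replication genes had 3 of 18 (16.7%, interval 3.58 to 41.4), with PolD2 (1161, 672 and 480.01) and PolE4 (259, 137 and 107), and Mcm2 (362, 246 and 121) had a member whose other TSS, 519 bp away, was that of RPA1, the large subunit gene of replication protein A. The list held RPA1 under an older symbol, so it was not counted there. Apart from that peak, no member joined 2 genes of the same list in any of the 14 lists.

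Few of the glial and blood cell genes had a divergent partner. Of 23 glial genes, 3 had a divergent partner (loco, Nrx-IV and nrv2), and none of the 23 had a member, while 12 had a promoter summit of another class. These 12 were among the 20 glial genes without a partner (60%), where 13.8% of all genes without a partner had a promoter summit. Of 26 blood cell genes 1 had a partner, and that gene had no member. Among the 25 without a partner, 5 (20%) had a promoter summit. One of these, the prophenoloxidase gene PPO3, had a member, shared with CG9890 (509, 302 in replicate 1 and 199 in replicate 3). The TSS of CG9890 lay 509 bp away, beyond the limit for a partner. At 3 and 1 partnered genes these lists are too small for a share of partnered genes with a member. Both lists were chosen with earlier results of these data known, so their shares with a promoter summit are no independent evidence.

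Members ran from 191 to 2838 with a median of 330.0 (interquartile range 246 to 519.7), single-gene promoter summits from 190.5 to 5118 with a median of 311. The list median was exceeded by 54.98% of members and 52.4% of single-gene promoter summits, a difference of 2.59 points (95% interval -2.07 to 7.19). In the 5707 strongest peaks of each replicate's own list, set against the median of those peaks, these shares were 55.1% ± 2.31 and 51.98% ± 1.41 (SD, n = 2). The interval left out 0 in replicate 1 alone, without replicate 3 (5.78 points, 1.20 to 10.3), and not in replicate 3 alone, without replicate 1 (0.514 points, -4.09 to 5.09). Of the 570 strongest summits 91 were members (14.8% of members, against 13.1% of single-gene and 7.61% of summits over 500 bp from a TSS).

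By chromosome, arm 3R held 165 members (26.9%), 3L 137, 2L 121, 2R 118 and X 72 (11.7%, interval 9.30 to 14.6, where the whole list had 15.8%). Chromosome 4 held none, which allows a share of up to 0.600% by the exact interval, while 22 summits of the whole list (0.385%) lay there. The 500 bp limit made no visible step. The 24 summits whose farther TSS lay 451 to 500 bp away had a median signal of 274, and the 24 just outside, at 501 to 550 bp, had 293.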

How the data were processed

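Peaks from 2 biological replicates of 1 group were analysed. Per the file descriptions deposited with the samples, the authors called peaks on dm6 in each replicate and in both pooled, against 1 control file, and derived the IDR-thresholded list (IDR, irreproducible discovery rate) from the 3. Each replicate list and the pooled list held 30000 peaks. The aligner, caller, their versions and the IDR cut-off were not given in the sources used here. Signal values were used as deposited, to rank peaks within a list. The deposited −log10 q-value is at its ceiling of 4.28 in every IDR-thresholded peak and was not used. Read depth is unknown. The control file was not analysed here.

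TSSs came from Ensembl release 115 (BDGP 6.54, 13945 protein-coding genes) and sequence from RefSeq's Release 6 assembly, both in dm6 coordinates, and 0 peaks passed the end of an arm. Words were sought on both strands within 100 bp. Shares carry exact Clopper-Pearson 95% intervals and differences Newcombe 95% intervals (paired for flanks). All cover counting error alone, since peaks are not replicates, and no p-value was computed. Scripts (Python 3.11.15, SciPy 1.17.1) were tested on simulated data. Members, 14 gene lists, 11 words and named genes (the 12 highest members, the 8 highest with the consensus, the 4 highest with DRE, 3 per list and per geometry) were chosen with earlier results of these data known. Sequences of arm 2R are not shown. A few results that the naming rule covers are not reported here.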

Additional observations from a re-analysis of the deposited data

Results flagged for a closer look

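The 24293 pooled peaks below the IDR-thresholded set enter the results above only in the count of TSS pairs with any pooled summit. Of them 890 had their summit at a divergent promoter by the same rule, 726 of these at gene pairs with no member. At these 726 the DRE word lay within 100 bp of the summit in 9.23% (67 summits, interval 7.22 to 11.6). In the left flank, 1000 bp from the summit, it stood in 0.964% (7 windows, 0.389 to 1.98). That flank is not matched for distance to a TSS, so the contrast is no measure of binding. Within 100 bp of the midpoint, 10.7% of head-to-head pairs without an IDR-thresholded summit had DRE (152 of 1417). The Gcm consensus stood at 8 of the 726 summits (1.10%) and at 6 of their left flanks (0.826%). By pooled rank, divergent promoters held 11.02% of the first 5000 summits, 7.22% of the next 5000 and 1.74% of the last 5000.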

How the results depend on the processing

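Of 69 alternative values for 10 results, 54 stayed in direction, call and error range. Members were 7.24% of summits with a TSS window of 250 bp, 14.7% with 1000 bp and 11.8% in the 2853 strongest peaks. Head-to-head pairs fell to 95.6% with 1 TSS per gene, and summits between the TSSs to 71.6% there and 68.5% with 1000 bp. Recovery in the replicates was 86.2% by summits within 100 bp and 76.8% by reciprocal overlap of 50%. The difference in height from single-gene promoters passed with 250 bp (9.15 points), in the 2853 strongest peaks (7.35) and in 1 of the replicates alone (0.514 to 5.78 points). The difference of the Gcm consensus from the left flank, -0.326 points, turned to 1.79 with 1000 bp (interval 0.108 to 3.54), 0.890 in the 2853 strongest peaks and 0.410 between TSS pairs with and without a summit. That last comparison, added after seeing the data, took DRE from 9.30 points to 0.865. It sets divergent promoters against each other instead of against their flanks. It also counts pairs at most 500 bp apart instead of summits, with windows at the midpoint of the TSSs. The part of each change was not tested, nor was the cause in the other cases. Each replicate alone, taken by its 5707 strongest peaks, kept the Gcm difference from single-gene promoters at -4.31 to -3.81 points and that of DRE at 6.25 to 8.13.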
